A study of Mus musculus with 8 samples.

Results

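The N-terminal peptide of obestatin was compared with saline in RNA from the epididymal region of mice. The samples were chosen by their agent label, which gave 2 samples of the N-terminal peptide and 2 of saline, 4 of the 8 samples in the series. All mice were CFT Swiss albino animals, 5 weeks old and with no genetic change named in the labels, and received their agent intraperitoneally for 8 days, with food withheld by day. The saline group received the vehicle alone. The growth protocol states a peptide dose of 80 nmol/kg with 3 mice in each group, and the design text 80 ng/kg with 6 mice in each. Which of them holds was not settled here. The source name and the protocols speak of the fat pad and of adipose tissue, whereas the titles and the tissue field say only epididymal. The labels do not tie the samples to separate mice or pools. The p-values therefore cover the spread between these samples, which may be technical.

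Each sample was 1 dye of a 2-colour Agilent array. Replicate 1 carried Cy3 and replicate 2 Cy5, and the pair of samples from each group was hybridised on a single array. Array and group therefore cannot be told apart. Values are normalized log2 intensities, each pair of levels is given as Cy3 and then Cy5, saline is given before the N-terminal peptide, and a difference is always the N-terminal peptide minus saline. It was taken within each dye, and both dyes had to point the same way before a gene was described as higher or lower in both dyes. The median signal ranged from 80.5 to 155 intensity units over median backgrounds of 22 to 31, with 25388 to 29113 of 41174 probes well above background in the 4 samples. Precision is limited by how few arrays there were.

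Obestatin is cut from the precursor of ghrelin, the hunger hormone of the stomach, and GPR39 has been proposed as its receptor. The epididymal fat pad is a white fat depot made of adipocytes, vessels, fibroblasts and macrophages. It lies against the epididymis, the duct in which sperm mature. The duct is lined by an epithelium that secretes lipocalins, cystatins, beta-defensins and antioxidant enzymes, and each stretch of the duct makes its own set of them, many under androgen control.

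The marker genes showed what the 4 samples held. Adipocyte genes were present, with 26 of 30 listed measured and a median level of 11.85 and 11.37 in saline replicates 1 and 2. All 30 testis germ cell genes were measured too. Their median level was 8.82 and 14.83 in saline replicates 1 and 2, and 9.06 and 14.96 in the N-terminal peptide. All 30 were over 4-fold higher in replicate 2 than in replicate 1 of both groups, and 14 were saturated in at least 1 sample. None of the 30 was below background in the whole saline group. The log2 of their summed signal was 15.19 and 19.98 in saline and 15.29 and 19.61 in the N-terminal peptide. Epididymal genes went the other way: 47 of the 55 measured were brighter in replicate 1 than in replicate 2 of saline, and 42 in the N-terminal peptide. The samples thus held transcripts of fat, epididymis and germ cells in shares that differed between the samples of a group. Their part in the differences below was not tested.

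In these 2 groups, samples of the same dye were closer than samples of the same group. Across genes, which are not independent replicates, the correlation was 0.950 between the Cy3 samples of the 2 groups and 0.982 between the Cy5 samples. It was 0.583 between the saline samples and 0.557 between the N-terminal peptide samples. Closeness did not follow the dye throughout the series. The correlation was 0.965 between the obestatin samples, which carried different dyes, and 0.747 between the Nt8U samples. The Cy3 sample of the N-terminal peptide was closer to the obestatin Cy5 sample (0.971) than to the obestatin Cy3 sample (0.921). What set the closeness was not tested. Of the 15467 genes tested, 51.3% were over 2-fold apart between the saline samples and 56.9% between the N-terminal peptide samples, against 8.35% between the Cy3 samples and 3.17% between the Cy5 samples of the 2 groups.

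No gene passed the adjusted threshold of 0.05 in either direction. Limma called 0 genes higher (0% of genes tested) and 0 lower (0%), with a lowest Benjamini-Hochberg adjusted p of 1. At an unadjusted p under 0.05 limma gave 16 genes higher (0.103%) and 103 lower (0.666%). The median SE of a log2 difference was 0.49, and at that SE a difference of 1.29 was needed for an unadjusted p of 0.05. The dye term assumes the same step between the dyes in every group, and steps that differ between groups widen the SE. Rnase9 differed by 1.66 in Cy3 and 1.64 in Cy5 but had an SE of 2.40. Fitted to the 4 samples alone, limma also called 0 genes, with 741 at an unadjusted p under 0.05. The median difference over all genes was 0.02, and 0.07 in Cy3 and -0.04 in Cy5. Differences of single genes are therefore given below as measured values.

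Read within dye, 22 genes were over 2-fold higher in both dyes (0.142% of genes tested) and 84 were over 2-fold lower (0.543%). For scale, 4559 genes were higher in both dyes by any amount (29.5%) and 4058 lower (26.2%). In Cy3 alone 669 genes were over 2-fold higher (4.33%) and 623 lower (4.03%), and in Cy5 alone 48 were higher (0.31%) and 443 lower (2.86%). The genes over 2-fold different in both dyes were also far apart within a group: 17 of the 22 higher (77.3%) and 73 of the 84 lower (86.9%) differed by over 2-fold between the saline samples. The 4 samples split by group, with both peptide samples beyond both saline samples, in 6 of the 22 and 29 of the 84. Over all genes both peptide samples lay above both saline samples in 655 (4.23%) and below in 754 (4.87%). The difference was the larger of the pair in Cy3 for 18 of the 22 and 57 of the 84.

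**Figure D1:**
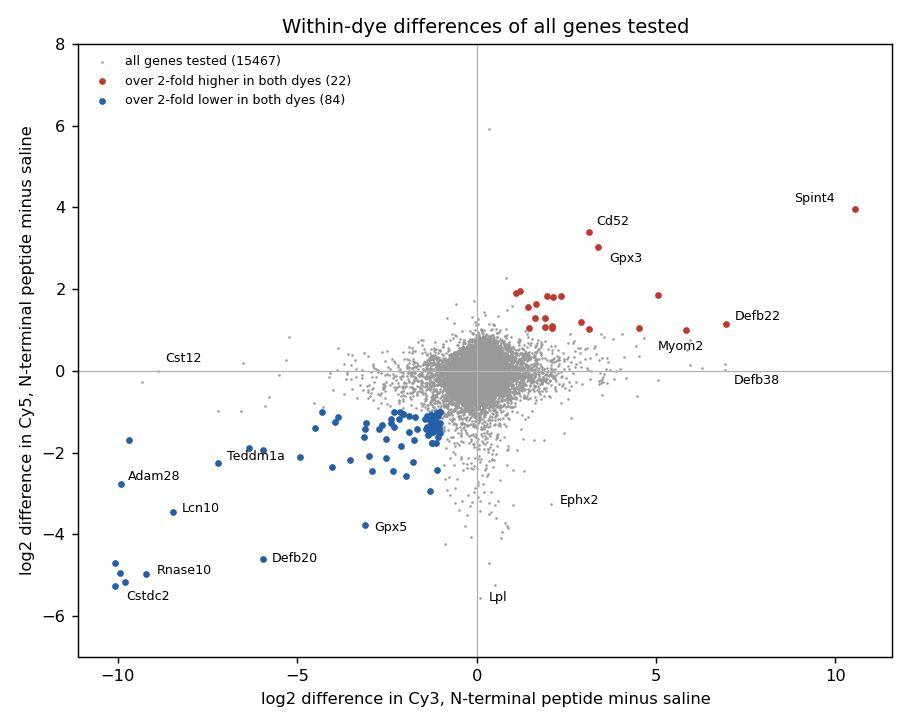
Each point is 1 of 15467 genes, with its log2 difference (N-terminal peptide minus saline) in the Cy3 samples on the x axis and in the Cy5 samples on the y axis. Colours mark the 22 genes over 2-fold higher and the 84 over 2-fold lower in both dyes, and the epididymal genes Spint4, Cstdc2, Lcn10 and Rnase10 lie at the far ends.

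The genes with the widest differences in both dyes were genes of the epididymal epithelium. The 4 epididymal lists (lipocalins, cystatins, beta-defensins, and sperm maturation and secretory genes) hold 83 symbols, of which 55 were measured. Of these, 14 were over 2-fold lower and 5 over 2-fold higher with the N-terminal peptide in both dyes, against 0.543% and 0.142% of all genes tested. By any amount 25 were lower in both dyes, 12 were higher in both, and in 18 the dyes pointed opposite ways. Over all genes 26.2% were lower and 29.5% higher in both dyes. Among all genes over 2-fold different in both dyes, 54 of the 84 lower and 16 of the 22 higher were in none of the 38 lists. Of the 55, 85.5% were over 2-fold apart between the saline samples. The 4 lists were chosen with earlier results of these data known, so the shares set beside all genes are no independent evidence.

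The epididymal lipocalins, secreted carriers of small hydrophobic molecules, were mostly lower. Of 8 measured, 5 were over 2-fold lower in both dyes, and the median difference was -2.67 (-3.42 in Cy3 and -1.92 in Cy5). Only 1, Lcn5, counted as higher in both, on saturated Cy3 values. Lcn8 stood at 16.45 in Cy3 and 10.98 in Cy5 with saline, and at 6.64 and 5.81 with the N-terminal peptide. Both peptide samples were lower than both saline samples. The saline Cy3 sample was saturated and the peptide Cy5 sample was not well above background, so neither within-dye difference is an exact value (limma adjusted p = 1). Lcn9 stood at 16.44 (saturated) and 11.29 in saline and at 6.37 and 6.59. Lcn10 stood at 14.74 and 9.85 in saline and at 6.27 and 6.39. In both genes the Cy3 sample of the N-terminal peptide was not well above background. Lcn12 stood at 15.32 and 10.77 in saline and at 13.0001 and 8.32 with the N-terminal peptide. For Lcn12 the groups overlapped, because the saline Cy5 sample was below the peptide Cy3 sample. Its within-dye differences were -2.32 and -2.45. Lcn5 differed from the others: it stood at 16.46 and 12.71 in saline and at 16.92 and 12.86 with the N-terminal peptide, saturated in the Cy3 sample of both groups. Its Cy3 values therefore set no difference between the groups.

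Lcn8, Lcn9 and Lcn10 lie near each other on chromosome 2, and were picked because they were lower together. Other lipocalins were not: Lcn5 is given above, and Lcn6, which was faint, differed by -0.33 in Cy3 and 0.20 in Cy5. Whether the region as a whole differed was not tested. The start regions of Lcn8, Lcn9 and Lcn10 are shown. Each holds 250 bases before and 50 after the annotated start, on the plus strand of GRCm38.p6, from RefSeq, and capitals mark AGAACA, the half-site that the androgen receptor is known to bind.
Lcn8, chr2:25652868-25653167: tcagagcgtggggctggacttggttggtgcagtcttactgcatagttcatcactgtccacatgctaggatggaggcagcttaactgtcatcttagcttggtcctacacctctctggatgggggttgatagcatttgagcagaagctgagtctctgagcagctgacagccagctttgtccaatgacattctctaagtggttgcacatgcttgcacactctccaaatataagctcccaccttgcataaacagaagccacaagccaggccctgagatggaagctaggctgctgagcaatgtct
Lcn10, chr2:25682476-25682775: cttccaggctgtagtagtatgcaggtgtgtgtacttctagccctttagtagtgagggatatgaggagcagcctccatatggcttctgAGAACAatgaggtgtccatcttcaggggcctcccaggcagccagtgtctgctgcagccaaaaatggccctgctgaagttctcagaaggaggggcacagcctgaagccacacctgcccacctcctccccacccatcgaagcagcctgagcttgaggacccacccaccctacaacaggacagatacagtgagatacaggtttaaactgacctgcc
Lcn9, chr2:25822903-25823202: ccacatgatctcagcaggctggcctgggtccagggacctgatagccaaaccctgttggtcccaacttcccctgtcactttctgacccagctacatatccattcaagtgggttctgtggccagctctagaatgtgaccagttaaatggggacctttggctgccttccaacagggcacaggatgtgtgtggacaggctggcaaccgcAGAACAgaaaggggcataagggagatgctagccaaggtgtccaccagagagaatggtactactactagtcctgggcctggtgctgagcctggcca
AGAACA was searched on both strands, as AGAACA or TGTTCT. Counted from the start to its first base, it stood at -163 in Lcn10 and at -45 in Lcn9, and was not found in the Lcn8 window. Of 32851 promoters of the same length, 19% hold it. AGGAAG, a form of the core bound by ETS factors, was searched likewise (AGGAAG or CTTCCT) and was found in none of these windows, so that no match of either motif overlapped the other, while 35.4% of all promoters hold it. A match here is a description of the letters and not a binding site.

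Other epididymal genes had the same form as Lcn8. Cstdc2, a cystatin-like gene, stood at 16.50 (saturated) and 13.51 in saline and at 6.43 and 8.25 with the N-terminal peptide. Its peptide Cy3 sample was not well above background, so the Cy3 difference is no exact value. Cst11, a cystatin of the cysteine protease inhibitor family, stood at 16.44 (saturated) and 11.45 in saline and at 6.51 and 6.50. Rnase10, a ribonuclease-like secreted protein needed for sperm to bind the egg in mice, stood at 16.36 and 10.89 in saline and at 7.14 and 5.92. Adam28, a membrane metalloprotease, stood at 16.26 and 9.17 in saline and at 6.33 and 6.41. The peptide sample was not well above background in Cy5 for Rnase10 and in Cy3 for Adam28. In each of these genes both peptide samples lay below both saline samples. These genes, and Lcn8, Lcn9 and Lcn10, were low in the other peptide groups too, so the low level was not particular to the N-terminal peptide. Lcn8 stood at 7.50 and 6.54 with obestatin and at 5.91 and 6.16 with Nt8U. Rnase10 stood at 7.56 and 6.31 with obestatin and at 6.20 and 6.35 with Nt8U. Teddm1a, an epididymal membrane protein, stood at 13.20 and 8.25 in saline and was not well above background in either peptide sample. Its group means over both dyes make it at least 26.7-fold lower (limma adjusted p = 1), with differences of -7.22 in Cy3 and -2.26 in Cy5. Teddm1a was well above background in the saline samples alone, 2 of all 8. It passed the filter on dim probes only through them, so it had to differ. Of the cystatins as a list, 5 of 8 measured were lower and none higher in both dyes, with a median of -1.06, which was -2.03 in Cy3 and -0.21 in Cy5. Over all genes 26.2% were lower in both dyes. The 5 include Cst12, which differed by -8.88 in Cy3, where saline was saturated, and by only -0.0035 in Cy5.

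A second set of lower genes kept a clear signal in the Cy3 sample of the N-terminal peptide. Gpx5, a glutathione peroxidase that protects sperm, stood at 16.45 (saturated) and 10.12 in saline and at 13.35 and 6.34 with the N-terminal peptide. Adgrg2, a receptor of the efferent ducts and epididymis that is needed for fluid uptake, stood at 15.73 and 8.74 in saline and at 11.71 and 6.38, so that in Gpx5 and Adgrg2 the saline Cy5 sample lay below the peptide Cy3 sample and the groups overlapped. Defb20, a beta-defensin, stood at 16.44 (saturated) and 11.30 in saline and at 10.47 and 6.70, with both peptide samples below both saline samples. Genes outside the epididymal lists had this form too. Bglap, osteocalcin, stood at 12.84 and 8.71 in saline and at 9.92 and 6.25. Cryba4, a lens crystallin gene, stood at 13.95 and 9.27 in saline and at 11.43 and 7.14. In Bglap and Cryba4 the groups overlapped. Bmyc, a Myc relative, stood at 13.25 and 9.74 in saline and at 9.71 and 7.56, and its peptide samples were both below both saline samples, with the peptide Cy3 sample close to the saline Cy5 sample. Sdk2, an adhesion protein, stood at 13.27 and 9.42 in saline and at 8.34 and 7.30, again with no overlap.

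The genes higher with the N-terminal peptide included epididymal genes as well. Spint4, a Kunitz-type protease inhibitor gene, was not well above background in either saline sample (6.13 and 5.98) and stood at 16.69 and 9.94 with the N-terminal peptide. Its group means over both dyes make it at least 153-fold higher (limma adjusted p = 1), with differences of 10.56 in Cy3 and 3.95 in Cy5. The other peptide groups of the series were split on this gene, at 12.40 and 15.25 with obestatin and at 5.96 and 5.98 with Nt8U. Its start region is shown beside those of the lipocalins as the start of the gene that differed most in the other direction; it holds neither motif.
Spint4, chr2:164698251-164698550: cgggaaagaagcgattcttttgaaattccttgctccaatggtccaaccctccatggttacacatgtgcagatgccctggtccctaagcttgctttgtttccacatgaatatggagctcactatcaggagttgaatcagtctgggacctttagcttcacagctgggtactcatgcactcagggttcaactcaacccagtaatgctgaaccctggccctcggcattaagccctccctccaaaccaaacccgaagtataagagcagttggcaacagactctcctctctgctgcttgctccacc
Gpx3, a secreted glutathione peroxidase, stood at 12.56 and 9.03 in saline and at 15.96 and 12.06 with the N-terminal peptide (limma difference 3.21, SE 1.51, 95% interval -0.74 to 7.17). Cd52, a surface antigen that the epididymis passes on to sperm and that lymphocytes also carry, stood at 13.76 and 9.57 in saline and at 16.90 and 12.97, saturated in the peptide Cy3 sample. Cd52 falls outside the naming rule because of that saturation and was singled out after its values were seen. For Gpx3 and Cd52 the peptide Cy5 sample was lower than the saline Cy3 sample, so the groups overlapped.

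Further secreted proteins were higher in both dyes. Defb22, the beta-defensin of the sperm coat, stood at 6.40 and 6.04 in saline, where only the Cy3 value was well above background, and at 13.35 and 7.19. Defb29, another beta-defensin, stood at 12.75 and 7.36 in saline and at 14.66 and 8.66. In both genes each peptide sample was above the saline sample of its dye. Ces5a, an epididymal carboxylesterase, stood at 14.90 and 10.94 in saline and at 16.33 and 12.49. Rnase9, a relative of Rnase10, stood at 13.97 and 8.31 in saline and at 15.63 and 9.95. AY761185, a defensin-like gene, stood at 13.63 and 8.65 in saline and at 15.75 and 10.45. In the last 4 genes the samples of a group were further apart than the groups were within a dye. Their limma difference was below 0 without replicate 1 of the N-terminal peptide, at -0.80 for Defb29, -0.56 for Ces5a, -0.78 for Rnase9 and -0.18 for AY761185. Without saline replicate 2 it was -0.39 for Defb29, -0.64 for Ces5a and -0.77 for Rnase9. These fits take the dye effect from the other groups, so they do not test the direction within a dye, which was higher in both. As lists, beta-defensins had 5 of 19 higher and 5 lower in both dyes, and sperm maturation and secretory genes had 6 of 20 higher and 10 lower. Over all genes 29.5% were higher and 26.2% lower in both dyes. Outside these lists, Ly6f, a Ly6 family gene, stood at 7.44 and 6.00 in saline and at 12.50 and 7.86, with no overlap and the saline Cy5 sample not well above background. Ap3b2, an adaptor subunit of neurons, stood at 10.60 and 7.76 in saline and at 12.95 and 9.59. Smarcd3, a chromatin remodelling subunit, stood at 10.95 and 8.40 in saline and at 13.87 and 9.60. C1qtnf5, a C1q-related secreted protein, stood at 12.47 and 9.69 in saline and at 14.10 and 10.98. In Ap3b2, Smarcd3 and C1qtnf5 the peptide Cy5 sample was below the saline Cy3 sample.

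**Figure D2:**
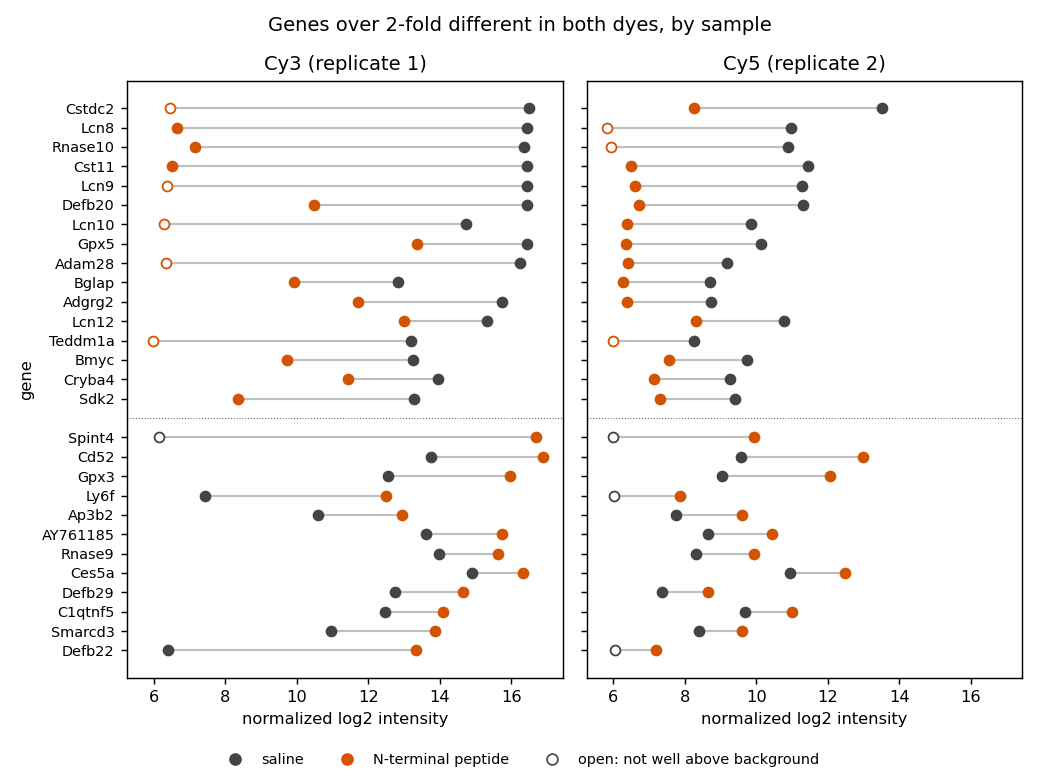
Normalized log2 intensity (x axis) of 28 genes over 2-fold different in both dyes, with the Cy3 samples on the left and the Cy5 samples on the right, grey for saline and orange for the N-terminal peptide. Open points are samples not well above background, and the Cy3 samples of Lcn8, Rnase10 and Cst11 lie over 9 log2 units apart.

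The macrophage, class II, fibroblast and matrix genes were mostly lower in both dyes. Which part of the tissue their RNA came from was not tested. Of the 77 genes of these 4 lists that were measured, 65 were lower in both dyes and 0 higher, where 26.2% of all genes tested were lower in both dyes. Over 2-fold in both dyes, 9 were lower. No member passed the adjusted threshold. These lists too were chosen with earlier results of these data known, so the counts are no independent evidence. Over 16 other ways of processing the medians kept their sign but not their size: they ran from -0.89 to -0.40 for macrophage genes, from -1.11 to -0.52 for class II genes, from -1.42 to -0.13 for fibroblast genes and from -1.35 to -0.15 for collagen and matrix genes.

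Of 26 macrophage genes, 24 were lower in both dyes, with a median difference of -0.61, and -0.63 in Cy3 and -0.68 in Cy5. The log2 of their summed signal was 15.76 and 16.16 in saline and 15.27 and 15.78 with the N-terminal peptide. In bulk RNA, fewer cells of a type and less RNA per cell cannot be told apart. Lyve1, which binds hyaluronan on lymphatic endothelium and on some macrophages, stood at 8.44 in Cy3 and 7.32 in Cy5 with saline and at 7.06 and 5.95 with the N-terminal peptide, where the Cy5 sample was not well above background (limma adjusted p = 1). C1qa, a chain of complement C1q, stood at 10.38 and 8.85 in saline and at 9.27 and 7.80. Cd14, the co-receptor for lipopolysaccharide, stood at 9.22 and 8.04 in saline and at 8.28 and 7.002. In C1qa and Cd14 the difference was nearly the same in Cy3 and Cy5. Tyrobp, a signalling adaptor of myeloid cells, stood at 9.28 and 8.52 in saline and at 8.37 and 7.70. In Lyve1 and Tyrobp both peptide samples were below both saline samples, and in C1qa and Cd14 the peptide Cy3 sample was above the saline Cy5 sample.

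MHC class II genes, which present antigen on macrophages, dendritic cells and B cells, were lower in both dyes in 6 of 8, with a median of -0.93. The within-dye medians were smaller in size, at -0.65 in Cy3 and -0.62 in Cy5. H2-Aa stood at 9.46 and 7.82 in saline and at 8.27 and 6.35 with the N-terminal peptide. Its limma difference was -1.33 (SE 0.30, unadjusted p = 0.00841). Cd74, the invariant chain, stood at 11.86 and 10.52 in saline and at 11.10 and 8.79. H2-Ab1 stood at 11.03 and 9.63 in saline and at 10.34 and 8.56. H2-Eb1 stood at 10.77 and 9.36 in saline and at 10.17 and 7.33. All 4 class II genes were lower by more in Cy5 than in Cy3, and in each the peptide Cy3 sample stayed above the saline Cy5 sample. Ighm, an immunoglobulin heavy chain of B cells, stood at 10.57 and 8.58 in saline and at 9.30 and 7.31 with the N-terminal peptide, a difference of -1.27 in each dye. The B cell list as a whole had 3 of 8 lower and 2 higher.

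Of 19 fibroblast genes 17 were lower in both dyes (median -0.73), and of 24 collagen and matrix genes 18 (median -0.67). Lum, lumican, a proteoglycan that spaces collagen fibrils, stood at 12.32 and 9.27 in saline and at 10.36 and 6.70 with the N-terminal peptide. Dpt, dermatopontin, a matrix protein of skin and other connective tissue, stood at 10.77 and 8.35 in saline and at 9.52 and 6.57. In both genes the Cy5 difference was the larger. Dcn, decorin, another collagen-binding proteoglycan, stood at 15.27 and 12.71 in saline and at 14.36 and 11.60. Fbln2, fibulin 2, a glycoprotein of the matrix, stood at 11.02 and 8.86 in saline and at 9.84 and 7.97. Collagens had the same direction. Col5a2 stood at 10.03 and 8.12 in saline and at 8.94 and 6.49. Col6a1 stood at 11.27 and 8.71 in saline and at 10.00 and 7.63. Col6a2, its partner chain in type VI collagen, stood at 9.62 and 7.80 in saline and at 8.44 and 6.45. In each of these genes the peptide sample was the lower one in both dyes, and the groups overlapped. The unadjusted limma p of Dpt was 0.0179 and that of Lum 0.0711.

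Other immune and vessel genes were lower less evenly. Interferon response genes had 14 of 22 lower and 1 higher in both dyes (median -0.35), with Iigp1, an interferon-inducible GTPase, at 9.79 and 9.06 in saline and 8.88 and 7.60 with the N-terminal peptide. Chemokines had 9 of 19 lower and 1 higher (median -0.37). Ccl21a, which guides cells to lymphatic vessels, stood at 10.34 and 7.73 in saline and at 7.25 and 6.45. Cxcl13, which draws B cells, stood at 7.63 and 7.25 in saline and at 6.85 and 5.97, the last not well above background. In Ccl21a and Cxcl13 both peptide samples were below both saline samples. Endothelial genes had 7 of 20 lower and 2 higher (median -0.26), which sits near the 26.2% of all genes lower in both dyes. Plvap, the diaphragm protein of fenestrated vessels, stood at 10.09 and 7.90 in saline and at 8.26 and 7.06. T and NK cell genes had 6 of 15 lower and 2 higher, with a median of -0.07.

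**Figure D3:**
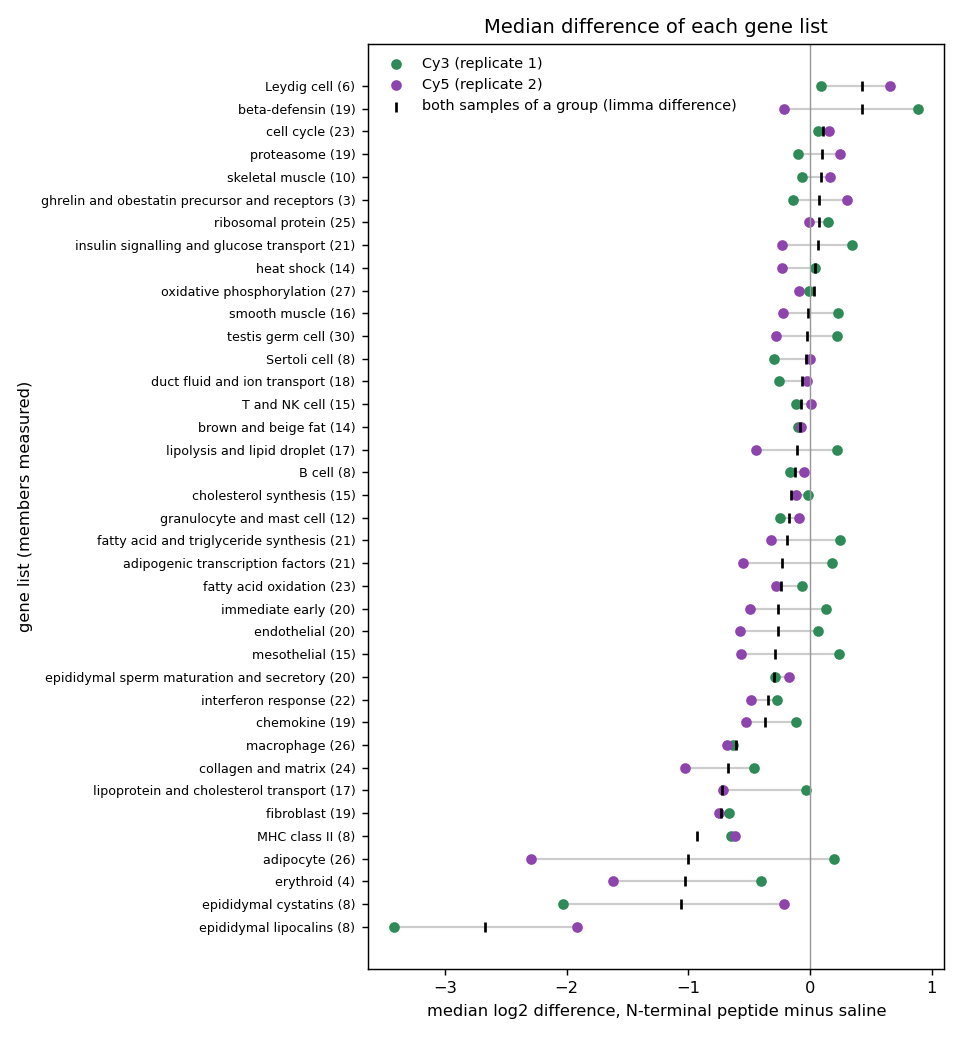
Median log2 difference (x axis, N-terminal peptide minus saline) of the measured members of each of 38 gene lists, in Cy3 (green), in Cy5 (purple) and as the limma difference over both (black mark). The lipocalin median is -3.42 in Cy3 and -1.92 in Cy5, the macrophage points nearly coincide at -0.63 and -0.68, and the adipocyte points are apart, at 0.20 and -2.29.

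Adipocyte genes were lower with the N-terminal peptide in the Cy5 samples and not in the Cy3 samples. Of 26 measured, 24 were lower in Cy5, 20 of them by over 2-fold, and 20 were higher in Cy3. Only 5 were lower in both dyes and 1 was higher in both, so the limma median of -1.004 joins a Cy3 median of 0.20 to a Cy5 median of -2.29. The median level was 11.85 and 11.93 in Cy3 for saline and the N-terminal peptide, and 11.37 and 9.24 in Cy5. Lpl, lipoprotein lipase, stood at 15.17 and 14.55 in saline and at 15.26 and 9.00 with the N-terminal peptide, so that 1 of the 4 samples was low. Adipoq, adiponectin, had the same form, at 14.31 and 14.003 in saline and 14.50 and 11.04 with the N-terminal peptide. Retn, resistin, a secreted protein of mouse adipocytes, stood at 11.82 and 11.19 in saline and at 11.54 and 7.67. Fasn, fatty acid synthase, stood at 15.77 and 15.62 in saline and at 16.34 and 14.01. Pparg and Cebpa, transcription factors of fat cell differentiation, were likewise lower in Cy5 alone. Pparg stood at 9.50 and 9.49 in saline and at 9.62 and 8.07 with the N-terminal peptide. Cebpa stood at 10.30 and 9.06 in saline and at 10.57 and 6.67. Cebpb, another such factor, was lower in both dyes, from 12.87 and 9.76 in saline to 11.72 and 8.42. The adipogenic transcription factor list had 8 of 21 lower and 2 higher in both dyes. Without the Cy5 samples of Nt8U, saline and the N-terminal peptide the limma difference only repeats the Cy3 difference. It was 0.09 for Lpl, 0.19 for Adipoq, 0.56 for Fasn, 0.12 for Pparg and 0.27 for Cebpa. Lipe, hormone-sensitive lipase, differed by -0.13 with a 95% interval from -2.48 to 2.21.

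A few adipocyte genes were lower in both dyes. Lep, leptin, the hormone of fat stores, stood at 10.33 and 8.68 in saline and at 9.43 and 6.03 with the N-terminal peptide (limma difference -1.77, SE 0.63, 95% interval -3.42 to -0.12, unadjusted p = 0.0399, adjusted p = 1). Mest, a gene of expanding fat cells, stood at 11.87 and 10.42 in saline and at 10.58 and 7.47. Sncg, gamma-synuclein, stood at 10.73 and 9.74 in saline and at 10.14 and 6.50. The Cy5 difference was the larger one in each of the 3 genes. In Vldlr, Apoc1, Scarb1 and Pltp the Cy3 difference was about as large as the Cy5 difference or larger. Vldlr, the very low density lipoprotein receptor, stood at 12.12 and 8.49 in saline and at 10.71 and 7.07. Apoc1, an apolipoprotein, stood at 14.30 and 12.10 in saline and at 12.26 and 11.06. Scarb1, the high density lipoprotein receptor, stood at 11.67 and 11.11 in saline and at 10.77 and 10.39, with both peptide samples below both saline samples. Pltp, phospholipid transfer protein, stood at 9.10 and 7.36 in saline and at 8.38 and 6.62. Elovl6, a fatty acid elongase, was lower mostly in Cy5, at 13.17 and 9.75 in saline and 12.26 and 7.43 with the N-terminal peptide. Lipoprotein and cholesterol transport genes as a list had 8 of 17 lower and 3 higher in both dyes, with a median of -0.03 in Cy3 and -0.71 in Cy5. Fatty acid oxidation genes had 12 of 23 lower and 2 higher (median -0.24). Fatty acid and triglyceride synthesis genes had 4 of 21 lower and 4 higher (median -0.19), and lipolysis genes 2 of 17 each way (median -0.11). Over all genes 26.2% were lower and 29.5% higher in both dyes.

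**Figure D4:**
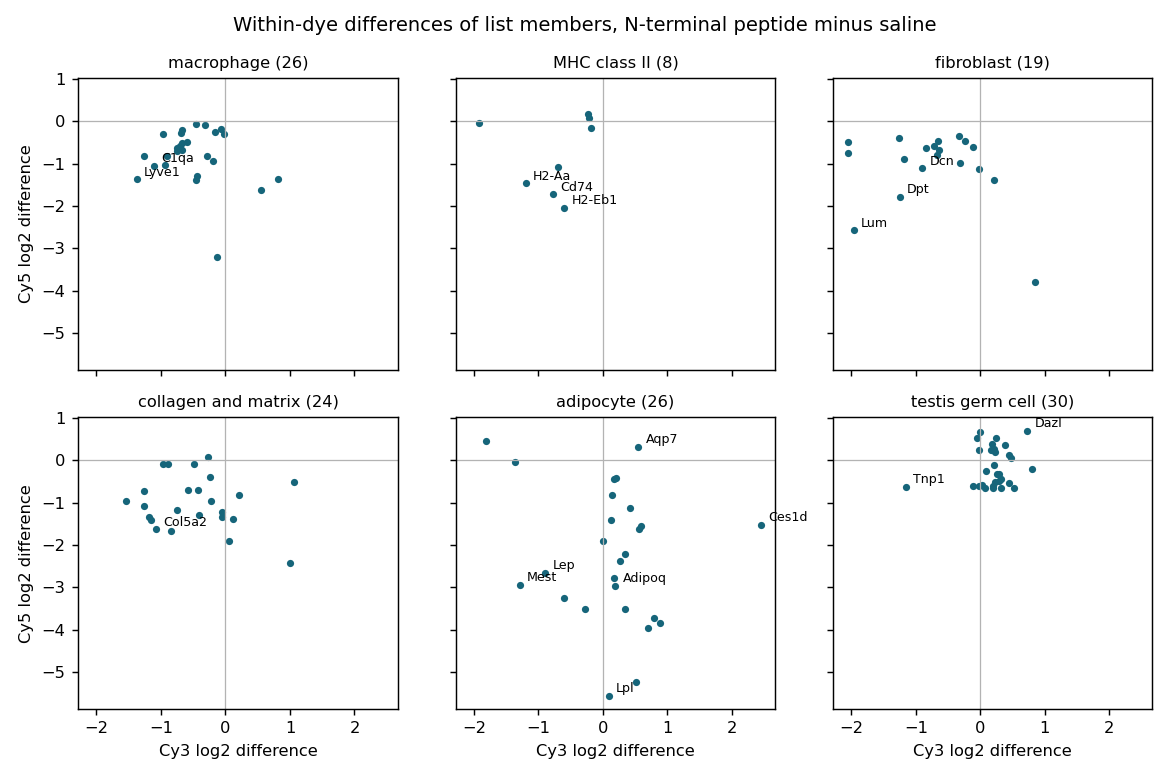
Each point is a member of the named list, with its log2 difference (N-terminal peptide minus saline) in Cy3 on the x axis and in Cy5 on the y axis. Macrophage and fibroblast genes gather in the lower left, adipocyte genes run down the Cy5 axis to Lpl at -5.55, and testis germ cell genes lie between -1.15 and 0.80 in Cy3.

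Markers of other cell types stood as follows beside these lists, where 29.5% of all genes were higher and 26.2% lower in both dyes. Haemoglobin genes were lower: Hba-a1 stood at 12.68 and 13.07 in saline and at 11.93 and 10.03. Hba-a2, a near copy that can share probe signal with it, stood at 12.96 and 13.51 in saline and at 12.15 and 10.60. Erythroid genes had 3 of 4 lower and none higher, with a median of -1.03. Skeletal muscle genes had 4 of 10 higher and 2 lower, with Myh1, a fast myosin heavy chain, at 9.15 and 7.55 in saline and 12.29 and 8.59 with the N-terminal peptide. Testis germ cell genes had 9 of 30 higher and 3 lower in both dyes with a median of -0.02, and their within-dye differences ran from -1.15 to 0.80 in Cy3 and from -0.66 to 0.70 in Cy5. Prm1, a protamine of the sperm nucleus, stood at 12.68 and 15.97 in saline and at 12.70 and 15.40 with the N-terminal peptide. Prm2, the other protamine, stood at 12.20 and 15.96 and then at 12.41 and 15.36. Both genes were saturated in the Cy5 samples of both groups, so their Cy5 differences are not measured. Ribosomal protein genes had 11 of 25 higher and 4 lower, with a median of 0.07.

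The genes of the obestatin system differed little within dye. Ghrl, which encodes the precursor of ghrelin and obestatin, stood at 6.64 in Cy3 and 10.14 in Cy5 with saline and at 6.63 and 10.69 with the N-terminal peptide. The step between the dyes was wider than any step between the groups. The limma difference was 0.27, with a 95% interval from -2.77 to 3.30, so a wide range of differences is compatible with these values. Gpr39, the proposed receptor, stood at 6.88 and 8.10 in saline and 6.73 and 8.41 with the N-terminal peptide (interval -1.20 to 1.35). Ghsr, the ghrelin receptor, was not well above background in either Cy3 sample and stood at 6.42 and 6.34 in the Cy5 samples.

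In 14 genes (0.0905% of genes tested) the dyes differed by over 2-fold in opposite ways, higher in Cy3 and lower in Cy5, and in 0 genes (0%) the other way round. Ephx2, soluble epoxide hydrolase, stood at 12.24 and 11.83 in saline and at 14.32 and 8.56 with the N-terminal peptide. Ces1d, a triglyceride lipase of adipocytes, stood at 11.18 and 10.72 in saline and at 13.63 and 9.20. In both genes the saline samples were close and the peptide samples lay on either side of them. Pla2g5, a secreted phospholipase, had the other order of signs with a smaller Cy5 difference, from 11.54 and 9.43 to 6.32, not well above background, and 10.26.

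The higher genes named for their small unadjusted limma p were faint. Rtp1, Ctsq, Olfr514 and Olfr472 were well above background in the peptide samples alone, 2 of all 8 samples, and passed the filter on dim probes only through them, so they had to differ. Rtp1, a chaperone of odorant receptors, stood at 7.34 and 8.10 with the N-terminal peptide and was not well above background in either saline sample, which makes it at least 2.98-fold higher (limma adjusted p = 1). Ctsq, a placental cathepsin, was at least 2.82-fold higher by the same measure, and the odorant receptor genes Olfr514 and Olfr472 at least 2.23-fold and 1.83-fold. Hif1an, which hydroxylates hypoxia-inducible factor, was above background in all 4 samples, at 7.93 and 8.13 in saline and 9.46 and 8.82 with the N-terminal peptide. In Hif1an both peptide samples were above both saline samples. Among lower genes the 5 smallest p belonged to Cstdc2, Lcn9, Lcn8, Rnase10 and Cst11, each with a saturated or dim sample.

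The authors' deposited table for the N-terminal peptide lists 37 probes as higher and 72 as lower. These lists were chosen on the same samples and are no independent evidence. Of the listed probes with a value in all 4 samples, 28 of 28 higher and 67 of 67 lower probes differed the listed way in both dyes, and 3 and 13 did so by over 2-fold in both. Of the 22 and 84 genes over 2-fold different in both dyes, 3 (13.6%) and 10 (11.9%) were on the authors' lists, which hold 30 and 54 distinct symbols. The deposited readme says that genes 2-fold apart between both controls were taken out by the authors, and 17 and 73 of those 22 and 84 genes did. Faint probes made up much of the lists: 15 of the 37 were well above background only in the peptide samples and 36 of the 72 only in the saline samples. In the authors' deposited table the authors' own p lay between 0.00489 and 0.404 for the higher and between 0.00215 and 0.377 for the lower probes, with 5 probes under 0.05 on each list. Scanner outlier marks fell on 9 higher-list probes, all 9 marked in the Cy5 sample of the N-terminal peptide, and on 5 lower-list probes, all in saline Cy5, against 87 of 41174 probes left out for a missing value in any of the 8 samples.

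The probes at the top of each list are printed below, since the values of the authors' table rest on these single 60-base sequences, copied from the authors' deposited table.
Nrgn, chromosome 9: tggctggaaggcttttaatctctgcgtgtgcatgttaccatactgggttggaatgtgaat
Myom2, chromosome 8: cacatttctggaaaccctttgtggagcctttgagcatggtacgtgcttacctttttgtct
Pnpla3, chromosome 15: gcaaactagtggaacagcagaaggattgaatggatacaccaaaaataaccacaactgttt
Asic1, chromosome 15: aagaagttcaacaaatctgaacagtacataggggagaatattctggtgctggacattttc
Nrgn, a calmodulin-binding protein of neurons, had log2 folds of 6.32 in Cy3 and 0.96 in Cy5 with a p of 0.404 in the authors' deposited table. Its levels here were 6.36 and 6.91 in saline and 12.30 and 7.67 with the N-terminal peptide, so 1 of the 4 samples stood out, and the saline Cy3 sample was not well above background. Myom2, a protein of the muscle sarcomere, had 5.57 and 1.18 in the authors' deposited table and stood at 9.12 and 9.95 in saline and at 14.97 and 10.95. In Myom2 both peptide samples were above both saline samples. Abcc8, a subunit of the potassium channel of beta cells, stood at 6.89 and 7.50 in saline and at 11.56 and 8.31. Abca4, a lipid transporter of the retina, was at least 5.75-fold higher by the group means over both dyes, with log2 differences of 4.46 in Cy3 and 0.60 in Cy5. Among listed lower probes, Pnpla3, a lipid droplet hydrolase, had -1.20 and -3.50 in the authors' deposited table and stood at 8.12 and 8.43 in saline and at 7.003 and 6.004, the last not well above background. Asic1, an acid-sensing channel listed under its older symbol Accn2, stood at 7.11 and 7.85 in saline and was not well above background in either peptide sample, at least 2.80-fold lower. Cdh7, a cadherin, was at least 2.33-fold lower. Asic1 and Cdh7 passed the filter on dim probes only through the saline samples, so both had to differ. The higher probes were led by the Cy3 sample (22 of 37 larger in Cy3 in the authors' deposited table) and the lower probes by the Cy5 sample (7 of 72 larger in Cy3).

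**Figure D5:**
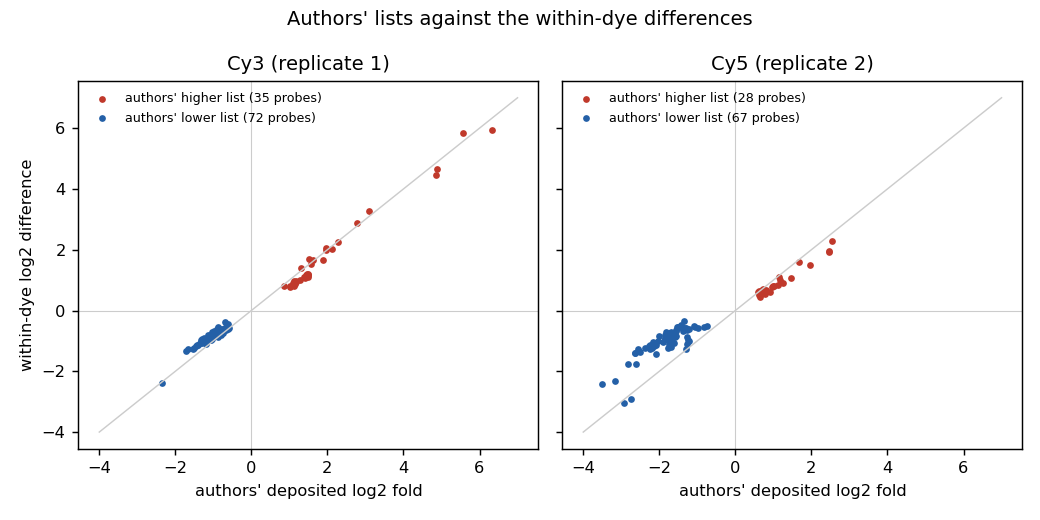
Each point is a probe on the authors' lists, with the authors' deposited log2 fold on the x axis and the within-dye log2 difference on the y axis, for Cy3 on the left and Cy5 on the right; the line marks equality. Across probes the correlation within a list was 0.992 and 0.939 in Cy3 and 0.977 and 0.822 in Cy5 for the higher and lower lists, and Cy5 values of the lower list are larger in the authors' table.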

How the data were processed

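RNA of 8 samples (4 groups of 2) was measured on 4 Agilent 2-colour arrays. The deposited intensities are spot signals and backgrounds per dye, read by a G2505C scanner and extracted with Feature Extraction 10.5.1.1 (grid build mm7), per the file headers. Which sample sits in which dye was taken from the deposited readme. The authors also deposited log2 values, in which a column labelled Cy3 matches the red channel and a column labelled Cy5 the green one. This leaves each value in its group but would swap replicates 1 and 2. Their medians lie between -2.9 and -2.14. How they were centred is not given in the sources used here. The authors' deposited lists give log2 folds with p-values from a test of their own in GeneSpring GX 10, after scaling the Cy3 and Cy5 arms each to their own saline control, per the deposited readme.

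Median signals were corrected with normexp (offset 50), normalized by loess within and Aquantile between arrays, with each dye taken as a sample (limma 3.58.1, R 4.3.3). Control spots had weight 0 in loess, spots with outlier marks were set to missing, and 87 probes were left out for that. Saturated spots (marked, or at the highest signal of 65527) were kept. Of 41174 probes, 28192 passed the filter (both samples of any 1 group well above background). Symbols came from the platform annotation and a GRCm38.p6 gene table (32664 probes with 1 symbol, 45 with several, 8465 not listed). The brightest probe stood for each of 15467 genes. Group means and a dye term were fitted to all 8 samples (3 residual and 1.67 prior degrees of freedom), with Benjamini-Hochberg adjustment, two-sided tests and a threshold of 0.05. The samples of a group share an array, so no p includes variation between arrays. A fold is given as "at least" where a whole group was not well above background. Each dim sample was set to the lowest level that counts as well above background there, or to its own level if higher. The fold compares the means of the groups over both dyes, so it is no bound within a single dye.

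Named genes were the 10 higher and 10 lower with the largest agreed difference (the smaller of the differences in the dyes, unsaturated genes only), up to 4 per list, the 5 smallest p each way, the 5 most opposed between dyes for each order of signs, the 5 at the top of each authors' list, and a fixed set of hormone, fat and germ cell genes. Not all of them are printed. The comparison and the 38 lists (724 symbols, 615 measured) were chosen with earlier results of these data known. The fit was tested on simulated data with independent noise and the same dye step in all groups. Dye steps that differ between groups were therefore not covered.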

Additional observations from a re-analysis of the deposited data

How the results depend on the processing

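No alternative called a gene. Over 16 alternatives limma gave between 52 (without saline replicate 1) and 1100 genes at an unadjusted p under 0.05, with 119 as reported. The 1100 came without the Cy5 samples of saline, the N-terminal peptide and Nt8U, which are high in germ cell genes, where the lowest adjusted p was 0.118. That alternative was chosen after seeing the data, because the planned one with a dye term left no residual degrees of freedom. The planned random block for the array was not run, since each array holds 1 group. Replicate numbers here follow the dye, so the dye term is already the block by number. Without it limma called 0 genes, with 62 at an unadjusted p under 0.05. Beyond the dye, no paired analysis was possible because the labels give no replicate numbers. Leaving out a sample leaves 1 in its group, which is then assumed to vary, and to differ between the dyes, like the other groups.

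The 22 higher and 84 lower genes over 2-fold different in both dyes became 93 and 239 from the scanner software's processed signals, and 89 and 164 with a normexp offset of 0. The higher count was 47 when loess was left out and 35 in the authors' deposited log2 values. The counts were 101 and 315 over 1.5-fold and 3 and 17 over 4-fold. The cause of these shifts was not tested, except that the fold itself sets the last pairs. The share of genes over 2-fold apart within a group ranged from 42.8% to 65.6% for saline and from 47.4% to 69.2% for the N-terminal peptide.

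Differences of single genes turned sign as follows. Gpr39 was at -0.11 with the processed signals, -0.032 with offset 0, -0.02 in the authors' values and -0.15 without the 3 Cy5 samples. Lipe was at 0.12 with the processed signals, 0.13 with the mean of all probes and 0.18 without the 3 Cy5 samples. Without those samples the difference only repeats the Cy3 difference. In that setting Ephx2 was at 2.07, Ghrl at -0.014, Adipoq at 0.19, Pparg at 0.12, Cebpa at 0.27, Fasn at 0.56, Lpl at 0.091, Prm1 at 0.023 and Prm2 at 0.20. Leaving out 1 sample, AY761185 ranged from -0.18 to 4.10, Rnase9 from -0.78 to 4.08, Ces5a from -0.64 to 3.62, Defb29 from -0.80 to 4.01, Lcn5 from -1.54 to 2.15, Ephx2 from -3.32 to 2.12, Ces1d from -1.28 to 2.21, Ghrl from -0.87 to 1.40, Gpr39 from -0.40 to 0.55, Pparg from -1.35 to 0.057, Fasn from -1.28 to 0.23, Lipe from -1.18 to 0.91, Prm1 from -1.22 to 0.67 and Prm2 from -1.20 to 0.81. The values of Lcn5, Prm1 and Prm2 rest on samples saturated in both groups and are not measured differences. Faint and saturated probes limit what the signal can show.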

Other observations

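Gene groups that belong to no result above are given here by their counts in both dyes, beside 29.5% of all genes higher and 26.2% lower. Cell cycle genes had 10 of 23 higher and 2 lower (median difference 0.10), and Leydig cell genes, which make testosterone, had 4 of 6 higher and 1 lower (median 0.43). Their medians changed sign under 2 of 16 alternatives each. Granulocyte and mast cell genes had 8 of 12 lower and 2 higher (median -0.17), with no change of sign. Brown and beige fat genes had 8 of 14 lower and 2 higher (median -0.08), and adipogenic transcription factors 8 of 21 lower and 2 higher (median -0.23, but 0.18 in Cy3 and -0.55 in Cy5). Immediate early genes had 7 of 20 lower and 3 higher (median -0.26).

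Other groups were close to even. Oxidative phosphorylation genes had 7 of 27 higher and 8 lower, proteasome genes 5 of 19 higher and 3 lower, cholesterol synthesis genes 5 of 15 higher and 7 lower, and heat shock genes 4 of 14 higher and 5 lower. Insulin signalling and glucose transport genes had 3 of 21 each way. Ion and fluid transport genes of ducts had 4 of 18 higher and 5 lower, Sertoli cell genes 3 of 8 each way, mesothelial genes 3 of 15 higher and 4 lower, and smooth muscle genes 2 of 16 higher and 1 lower. No member of any of these lists passed the adjusted limma threshold, at which limma called 0 genes in all and 119 at an unadjusted p under 0.05.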
